A study of Caenorhabditis elegans with 9 samples.

Results

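The genes described here are those for the proteins of the cytosolic ribosome of the nematode Caenorhabditis elegans. They were chosen by name alone, as every gene whose WormBase symbol begins with rpl- or rps- followed by a number. The rule found 78 of the 31106 genes in the deposited count tables, 47 for the large subunit (rpl) and 31 for the small subunit (rps), and all 78 are annotated as protein-coding. PolyA RNA from whole worms was sequenced in 3 genotypes, with 3 libraries each, to follow mRNA levels when the germline Argonaute HRDE-1 or its partner HRDE-2 is lost. The wild-type strain was N2. The hrde-1 strain (USC661) carried the tm1200 allele of hrde-1, which encodes a nuclear Argonaute protein of the germline. The hrde-2 strain (FD53) carried the qe20 allele of hrde-2, which encodes a germ granule protein of the same pathway. All animals were 1-day-old adults grown at 20 °C, many animals were pooled for each library, and the 3 libraries of a genotype are labelled as biological replicates. Each mutation was present in a single strain, so an effect of the allele and any other difference between the strains cannot be told apart. In lysates of whole worms, fewer cells of a type and less RNA per cell cannot be told apart either.

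Ribosomal proteins are built onto ribosomal RNA in the nucleolus, and the large and small subunits then meet on an mRNA to translate it. Both subunits need their proteins in equal number, so the genes for them are known for high and tightly matched mRNA levels in growing tissues. In C. elegans most of these proteins come from a single gene.

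The libraries held between 5801326 and 11884233 counts each. Between 19.4% and 31.4% of the counts were from ribosomal RNA genes, which polyA selection is meant to deplete. Counts of the hrde-1 gene were lower in the hrde-1 strain (108 to 144 CPM, counts per 1000000 of the scaled library) than in wild-type (200.7 to 355). Those of the hrde-2 gene were lower in the hrde-2 strain (14.4 to 19.4) than in wild-type (23.0 to 52.2). Of the marker lists for tissues of the adult worm, the intestine, muscle, cuticle, neuron, pharynx, germline and oocyte lists were detected in every library. Summed sperm markers were at 18.8 to 59.8 CPM in the wild-type libraries, 59.2 to 93.8 in those of hrde-1 and 210.2 to 254 in those of hrde-2.

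Levels are given in CPM, and between genes as CPM per kb of exon. The ribosomal protein genes formed a narrow band of high levels with a short tail below it. Their median level was 1689 CPM per kb, and 71 of the 78 genes lay above 1000 CPM per kb. They made up 61 of the 100 genes with the highest CPM per kb among the 12141 genes tested, and 72 of the highest 200. All 78 passed the filter on low counts.

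**Figure D1:**
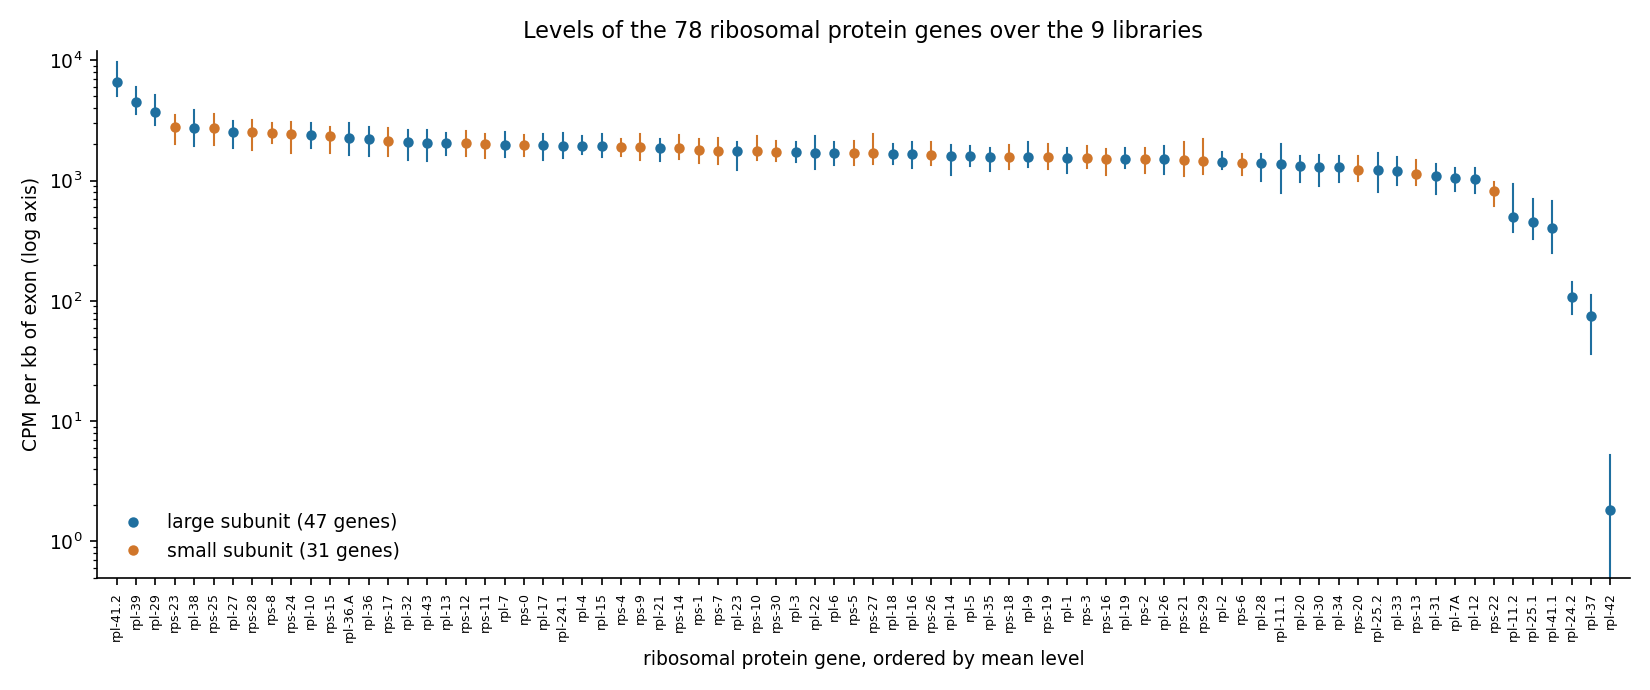
Mean CPM per kb of exon (log axis) of the 78 ribosomal protein genes over the 9 libraries, ordered by level, with lines from the lowest to the highest library. Most genes lie within a narrow band around 1689 CPM per kb, and 6 large subunit genes form the tail, from rpl-11.2 at 496 down to rpl-42 at 1.84, whose line is cut at the axis because it was at 0 in 2 libraries.

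The highest level was that of rpl-41.2, at 6537 CPM per kb, which encodes a very short peptide of the large subunit. It was followed by rpl-39 (4466 CPM per kb), for a small protein at the peptide exit tunnel, and by rpl-29 (3726), for a small basic protein of the large subunit. The next were rps-23 (2772), for a small subunit protein at the decoding centre, and rpl-38 (2753), for a large subunit protein linked to the translation of Hox mRNAs in mouse. At the low end stood rpl-42 (1.84), rpl-37 (74.2), rpl-24.2 (108), rpl-41.1 (399.6) and rpl-25.1 (453).

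Most genes of this low tail had a partner gene with a higher level. RefSeq names rpl-37 as rpl-37.2 and gives the name rpl-37.1 to W01D2.1, a gene that the name rule leaves out. W01D2.1 was at 2038 CPM per kb, within the main band, and rpl-37 gave between 2.28% and 4.36% of the CPM of both together. RefSeq lists rpl-24.2 as rsl-24D1, and its relative in budding yeast is an assembly factor of the large subunit and not a protein of the finished ribosome. Reads that map to several places were not counted in these tables, so near-identical copies such as rpl-41.1 and rpl-41.2, which lie 699 bases apart on chromosome I, are uncertain in level.

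The genes shared features that the name rule did not use. Their median exon length was 545 bases, against 1390.5 bases for all protein-coding genes tested, and their median number of exon blocks was 3, against 6. They were spread over chromosomes I (23 genes), II (10), III (18), IV (17) and V (8). Only rpl-11.2 and rpl-25.1 lay on the X chromosome, which is 2.56% of the members against 13.4% of the protein-coding genes tested. In C. elegans the X chromosome is largely silent in the germline until late in oocyte development. Of the 78 genes, 19 shared up to 14.2% of their exon bases with another gene. Some of these partners lay on the opposite strand and others on the same strand, as for rpl-20 with 14.2%. The kit preserved strand, but the counting was not stated to use it. The counts of these genes are therefore uncertain over the shared bases.

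Across the 9 libraries the ribosomal protein genes rose and fell together. The median standard deviation (SD) of log2 CPM over the libraries was 0.23 for the members, 0.43 for all genes tested and 0.33 for the 1347 genes tested with a mean of at least 100 CPM. Measured relative to the median member of each library, it was 0.10. The steadiest members were rps-4 (SD 0.17), rpl-2 (0.17), which encodes a core protein near the peptidyl transferase centre, and rps-30 (0.18), made as a fusion with a ubiquitin-like protein. The least steady were rpl-42 (1.66), rpl-37 (0.49) and rpl-11.1 (0.44).

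Summed over all 78 genes, the level was 97629, 83190 and 77233 CPM in the wild-type libraries (mean 86017 ± 10488 SD, n = 3). It was 62305, 69763 and 80701 CPM in hrde-1 (70923 ± 9253, n = 3) and 76790, 74475 and 92157 CPM in hrde-2 (81141 ± 9610, n = 3). The ranges of the 3 genotypes overlapped. Replicate 1 of wild-type stood at the top, with 52 of the 78 genes at their highest in that library, and replicate 1 of hrde-1 at the bottom, with 68 of the 78 at their lowest. Without these libraries the wild-type mean was 80211 CPM and that of hrde-1 was 75232 CPM, both of 2 libraries.

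**Figure D2:**
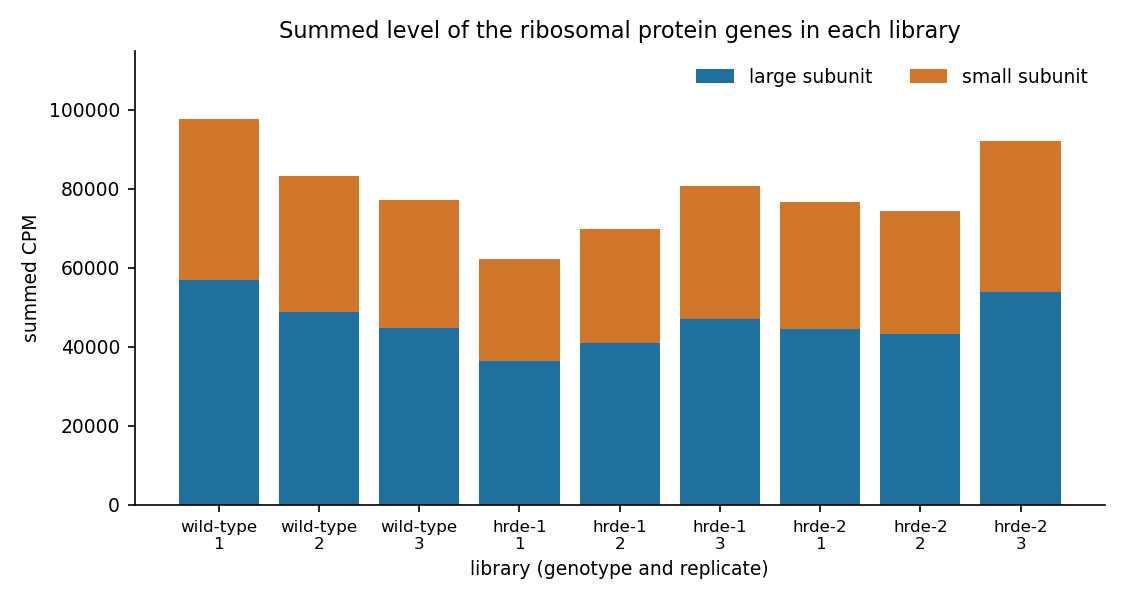
Summed CPM of the large subunit (47 genes) and small subunit (31 genes) in each of the 9 libraries, as stacked bars from 0. The totals run from 62305 CPM in hrde-1 replicate 1 to 97629 CPM in wild-type replicate 1, and the proportion of the subunits stays nearly the same throughout.

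As a share of all counts, the ribosomal protein genes took 7.42% to 9.45% in the wild-type libraries, 5.79% to 7.92% in those of hrde-1 and 7.22% to 10.2% in those of hrde-2. With counts of ribosomal RNA genes left out, the shares were 9.95% to 11.8%, 8.10% to 10.6% and 10.5% to 12.7%. These shares overlapped between every pair of genotypes on both scales.

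The balance of the subunits hardly moved. The ratio of summed large to summed small subunit CPM was 1.40, 1.43 and 1.39 in the wild-type libraries (1.41 ± 0.019 SD, n = 3). It was 1.41, 1.42 and 1.41 in hrde-1 (1.41 ± 0.0084, n = 3) and 1.39, 1.39 and 1.41 in hrde-2 (1.40 ± 0.012, n = 3). The differences between genotypes were smaller than the spread between wild-type libraries. Gene for gene, the median large subunit gene was slightly below the median small subunit gene in log2 CPM per kb in every library, by differences of -0.24 to -0.02.

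Between hrde-1 and wild-type animals, the ribosomal protein genes sat lower in the hrde-1 libraries as a block, but no single gene passed the test. The log2 fold change was below 0 for 77 of the 78 genes, against 52.3% of all genes tested. Their median was -0.27, a fold of 0.831, beside -0.03 for all 12141 genes tested. It was -0.27 for the large and -0.26 for the small subunit. In edgeR's quasi-likelihood test with Benjamini-Hochberg adjustment, 0 of 78 passed an adjusted p of 0.05, against 1.55% of all genes. At an unadjusted p under 0.05, 16 members were lower (8.56% of all genes) and 1 was higher (9.69%). In 19 members all 3 hrde-1 libraries were below all 3 wild-type libraries, or 24.4% against 9.97% of all genes. DESeq2's test on the same counts called 2 members lower, rpl-38 and rpl-22, against a background of all genes called of 4.67%.

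This shift leaned on the libraries at the ends of the range. Without wild-type replicate 1, the members' median was -0.10 and that of all genes tested was 0.09, with 62 of 78 members below 0. Without hrde-1 replicate 1, the medians were -0.14 and -0.05, with 68 of 78 below 0.

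The lowest fold change was that of rpl-38. Its level was 1313, 1269.7 and 913 CPM in wild-type libraries, at 662, 729.9 and 742 in hrde-1 libraries and at 894, 954 and 1023 in hrde-2 libraries. The hrde-1 libraries were below all others, and wild-type replicate 3 fell among the hrde-2 libraries. Its log2 fold change was -0.71 ± 0.18 (standard error, SE) in hrde-1, with an adjusted p of 0.0786 in edgeR's quasi-likelihood test, and -0.28 ± 0.18 in hrde-2. Without wild-type replicate 1 the fold change in hrde-1 was -0.58 and the adjusted p was 0.0460 in the same test.

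The level of rpl-22, for a large subunit protein that is not essential in yeast, was 1208, 1043 and 971 CPM in wild-type. The hrde-1 libraries were at 637, 726 and 800.2 CPM, and the hrde-2 libraries at 773, 794 and 911 CPM. The libraries of both mutants were below all 3 wild-type libraries. The log2 fold changes were -0.58 ± 0.17 (SE) in hrde-1 and -0.38 ± 0.17 in hrde-2, with adjusted p of 0.125 and 0.177 in edgeR's test. In hrde-1, rpl-11.1 (-0.63 ± 0.24) lay between rpl-38 and rpl-22, and rpl-27 (-0.51 ± 0.17) followed, neither past the threshold in the fit of all libraries. Without wild-type replicate 1 the fold change of rpl-11.1 was -0.78, with an adjusted p of 0.0304 in the same test. At the other end, near 0, stood rpl-25.2 (-0.08), rpl-12 (-0.07), which encodes a protein at the base of the stalk, and rps-7 (-0.04).

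**Figure D3:**
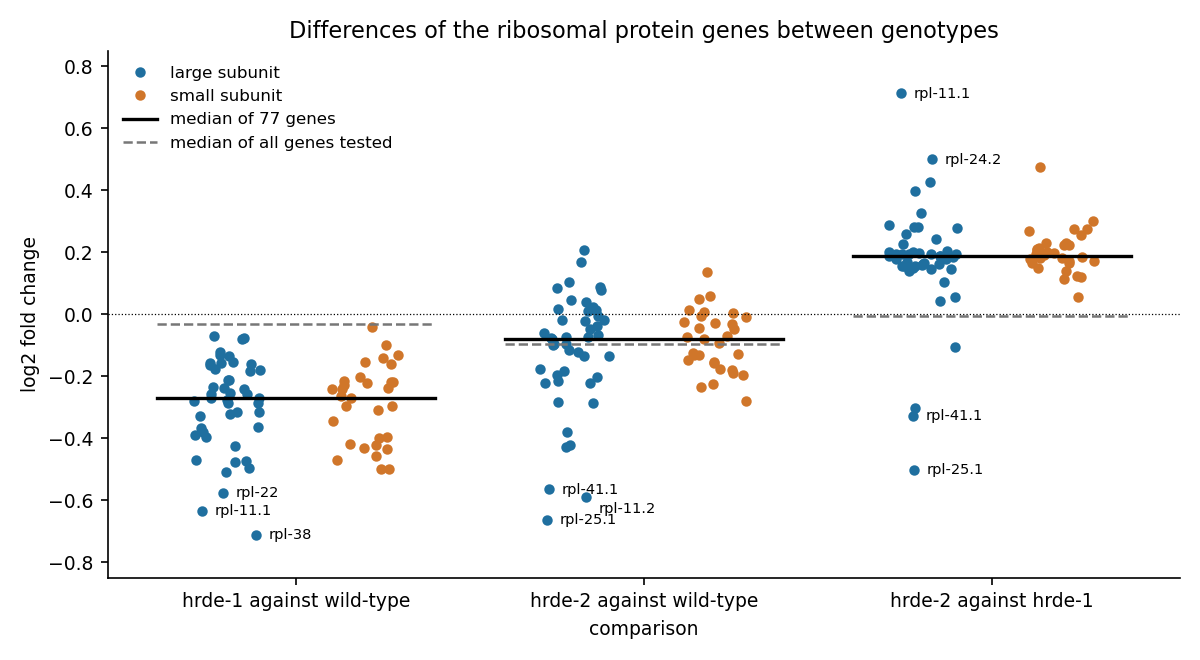
Log2 fold change of 77 ribosomal protein genes (1 point each, large and small subunit side by side) in the 3 comparisons, with the median of these genes (solid) and of all genes tested (dashed). rpl-42, at 2.60, 5.71 and 3.12, lies beyond the axis and is left out. The points sit around -0.27 in hrde-1 against wild-type, around -0.08 in hrde-2 against wild-type and around 0.19 in hrde-2 against hrde-1.

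Compared with the same wild-type libraries, the ribosomal protein genes in the hrde-2 libraries changed by nearly as much as all genes tested did. The members' median log2 fold change was -0.08, beside -0.10 for all genes tested, and 59 of 78 were below 0, against 56.6% of all genes. The sign of this median was not stable: without wild-type replicate 1 it was 0.10, beside 0.04 for all genes tested. In edgeR's quasi-likelihood test 1 of 78 members passed an adjusted p of 0.05, with rpl-42 higher, against 11.8% of all genes called and 7.57% called higher. In 4 members all hrde-2 libraries were below all wild-type libraries (16.4% of all genes) and in 1 they were above (15.7%).

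Between the mutants, the hrde-2 libraries had the higher levels. The members' median was 0.19, a fold of 1.14, beside -0.01 for all genes tested, and 74 of 78 were above 0, while 50.8% of all genes were below 0. It was 0.19 for the large and 0.20 for the small subunit. Again only rpl-42 passed edgeR's test, higher in hrde-2, against 5.67% of all genes called and 3.22% called higher. In 10 members all hrde-2 libraries were above all hrde-1 libraries (16.8% of all genes) and in 2 they were below (15.7%). Without hrde-1 replicate 1 the members' median was 0.13, beside 0.055 for all genes tested. Without hrde-2 replicate 3 it was 0.08, beside -0.02 for all genes tested.

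Libraries of the same replicate number deviated together weakly in these 2 mutants (r of 0.15, 0.11 and 0.25). The labels do not link replicate numbers across genotypes, so this pairing is not established. As an alternative, the comparison between the mutants was fitted with the replicate number as a block on the 6 mutant libraries. That fit called 7 members by edgeR's test, against 16.6% of all genes. Higher in hrde-2 were rps-24, rpl-24.2, rpl-14, rpl-11.1, rpl-38 and rpl-42, and rpl-25.1 was lower. The same 6 libraries without the block gave 3 calls, rpl-11.1 and rpl-42 higher and rpl-25.1 lower, against 11.8% of all genes.

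To find members that depart from the rest, the same fit was scaled to the middle ribosomal protein gene of each library instead of to all genes. On this scale 0 members departed in hrde-1 against wild-type, where 2.47% of all genes were called. At an unadjusted p under 0.05 they were rpl-38 (-0.43 ± 0.16 SE) and rpl-42 (2.83 ± 1.06). In hrde-2 against wild-type and in hrde-2 against hrde-1 only rpl-42 was called (8.44% and 4.6% of all genes).

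The gene rpl-42 (C09H10.1, chromosome II, 11092713 to 11093871, plus strand, WBcel235) was the only member called by edgeR's test in the fit of all libraries, and it was nearly silent. It had 1, 0 and 0 counts in the wild-type libraries, 3, 1 and 5 in hrde-1 and 28, 34 and 31 in hrde-2. The groups of hrde-2 and each of the others did not overlap, and even in hrde-2 its level of 2.57 to 3.00 CPM was the lowest of all members. It passed the filter on low counts only through the hrde-2 libraries, so it had to differ, and its call is no support for a change of the family.

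Scaled for library size, the ratio of its counts was 69.4 for hrde-2 over wild-type, with an exact 95% interval from 12.1 to 2768 that covers counting error only. It was 8.92 (4.50 to 20.1) for hrde-2 over hrde-1 and 7.77 (1.08 to 341) for hrde-1 over wild-type. In edgeR's quasi-likelihood test the adjusted p was 0.00109 for hrde-2 against wild-type, 0.0156 for hrde-2 against hrde-1 and 0.232 for hrde-1 against wild-type. Because wild-type held 1 count in all, the fitted fold changes depend on the prior count of the fit. The call against wild-type held when any 1 library was left out, with adjusted p of 0.000614 to 0.00760. The call against hrde-1 did not, with adjusted p of 0.0791 without hrde-1 replicate 1, 0.0652 without hrde-1 replicate 2, and 0.0600, 0.0732 and 0.0525 without hrde-2 replicate 1, 2 or 3. All these fits carry the selection of rpl-42 by its hrde-2 counts. Neither their p nor the hold of a call without a library is therefore support for its rise.

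The neighbour 2670 bases away, rpl-36.A, whose protein belongs to the family named Rpl42 in budding yeast, behaved like the rest of the ribosomal protein genes. It was at 1037 ± 136 CPM (SD, n = 3) in the wild-type libraries, 747.5 ± 89.6 in those of hrde-1 and 894 ± 117 in those of hrde-2. Between them lies nbs-1, with a log2 fold change of 0.72 ± 0.23 (SE) in hrde-2 against wild-type and an adjusted p of 0.0577 in edgeR's test. Further along the chromosome, C09H10.9 was also low and higher in hrde-2, with 5, 6 and 5 counts in the wild-type libraries, 4, 6 and 8 in those of hrde-1 and 19, 43 and 26 in those of hrde-2. Its log2 fold change was 1.95 ± 0.53 against wild-type. Like rpl-42, C09H10.9 passed the filter on low counts only through the hrde-2 libraries. Its adjusted p of 0.0304 in the same test is therefore no support for a change in this stretch. Another gene nearby, apc-17, had log2 fold changes of 0.99 ± 0.25 in hrde-2 and 0.95 ± 0.25 in hrde-1 against wild-type. The adjusted p of apc-17 was 0.0232 in hrde-2 and 0.0876 in hrde-1 in edgeR's test, beside 11.8% and 1.55% of all genes called. The summed sperm markers moved in the same direction as rpl-42, and their part in its result was not tested.

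In 4 pairs of genes that share a number, the weight of each gene could be followed library by library. In the rpl-11, rpl-25 and rpl-41 pairs both genes encode versions of the same protein, while rpl-24.2 (rsl-24D1 in RefSeq) is a different gene from rpl-24.1 (rpl-24). The rpl-11 genes encode the large subunit protein that binds the 5S ribosomal RNA. Of their joint CPM, rpl-11.1 on chromosome V gave 51.6%, 82.7% and 73.6% in the wild-type libraries, 58.5%, 64.0% and 69.2% in those of hrde-1 and 75.9%, 77.8% and 81.3% in those of hrde-2. The 2 mutants did not overlap, while wild-type covered the range of both.

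**Figure D4:**
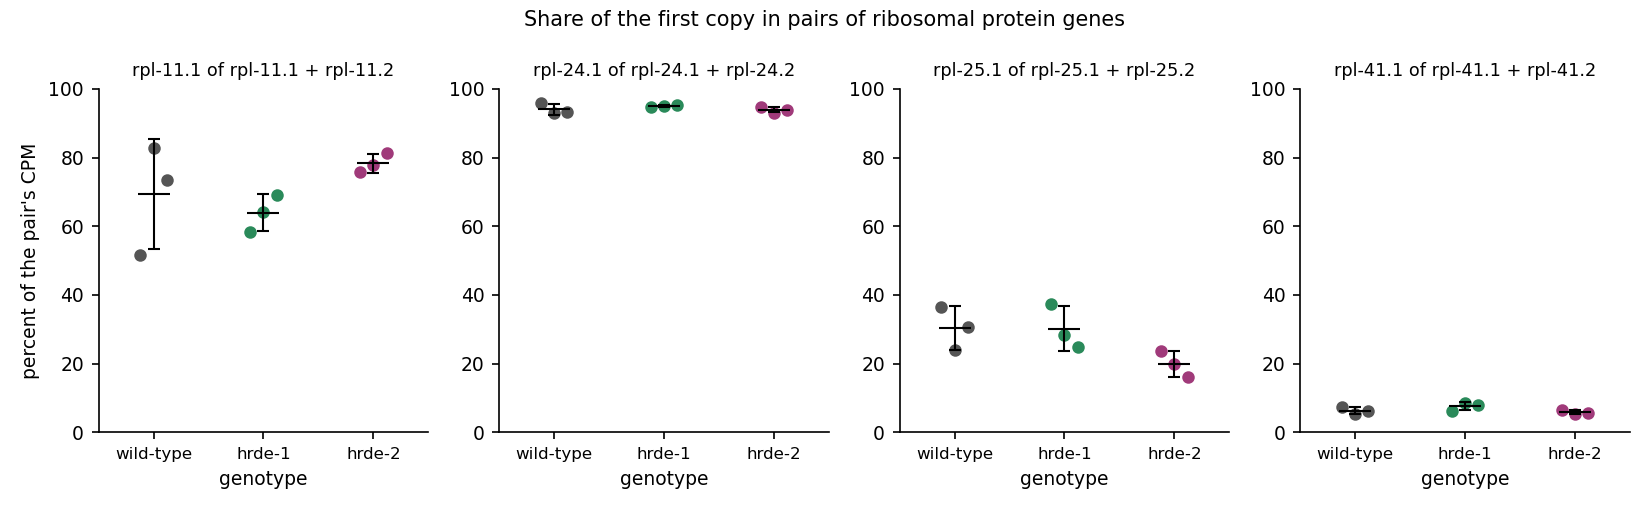
Percent of each pair's CPM that came from the first copy, with 1 point per library, the mean as a horizontal mark and SD as error bars (n = 3 per genotype). The share of rpl-25.1 is lower in hrde-2 (16.01% to 23.7%) than in the other genotypes, and the share of rpl-11.1 is higher in hrde-2 than in hrde-1.

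In level, rpl-11.1 was at 734, 1309 and 981 CPM in wild-type libraries, at 517, 625 and 809 in hrde-1 libraries and at 969, 998 and 1229 in hrde-2 libraries. Its hrde-2 libraries were above its hrde-1 libraries, with a log2 fold change of 0.71 ± 0.24 (SE) and an adjusted p of 0.103 in edgeR's quasi-likelihood test. With the replicate block on the 6 mutant libraries, a pairing that is not established, the adjusted p was 0.00212 in the same test. The copy on the X chromosome, rpl-11.2, was at 689, 274 and 352 CPM in wild-type libraries, at 367, 351 and 359 in hrde-1 libraries and at 308, 284 and 282 in hrde-2 libraries. Here wild-type replicate 1 alone stood high, and the hrde-2 libraries were below the hrde-1 libraries.

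The rpl-25 genes, RefSeq's rpl-23A.1 and rpl-23A.2, encode a protein at the exit of the peptide tunnel. The X-linked rpl-25.1 was at 353, 204 and 248 CPM in wild-type libraries, at 246, 233 and 240.2 in hrde-1 libraries and at 180.4, 162 and 166 in hrde-2 libraries. All 3 hrde-2 libraries were below all 6 others. The log2 fold change of hrde-2 was -0.66 ± 0.21 (SE) against wild-type and -0.50 ± 0.21 against hrde-1, with adjusted p of 0.0568 and 0.196 in edgeR's test. DESeq2's test gave an adjusted p of 0.0348 against wild-type. Its partner rpl-25.2 on chromosome I was at 606 ± 45.7 CPM (SD, n = 3) in the wild-type libraries, 575 ± 157 in those of hrde-1 and 699.6 ± 151 in those of hrde-2. Its log2 fold change in hrde-2 was 0.21 against wild-type and 0.28 against hrde-1, with adjusted p of 0.601 and 0.562 in edgeR's test. The share of rpl-25.1 in the pair was 36.6%, 23.9% and 30.8% in the wild-type libraries, 37.4%, 28.3% and 24.9% in those of hrde-1 and 23.7%, 20.0% and 16.01% in those of hrde-2.

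The minor copy rpl-41.1 was at 224, 126 and 121.6 CPM in wild-type libraries, at 123, 141 and 136 in hrde-1 libraries and at 127, 83.3 and 108 in hrde-2 libraries. Its groups overlapped, with wild-type replicate 1 far above the other libraries. Its log2 fold change in hrde-2 against wild-type was -0.56 ± 0.25 (SE), and that of rpl-41.2 was -0.43 ± 0.19, with adjusted p of 0.162 and 0.171 in edgeR's test. The share of rpl-41.1 stayed between 5.32% and 8.60% in all libraries. In the pair of rpl-24.1 and rpl-24.2, the first gave 93.0% to 95.9% throughout, and rpl-24.2 had a log2 fold change of 0.50 ± 0.19 in hrde-2 against hrde-1, with an adjusted p of 0.161.

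Over the 4 pairs and 3 comparisons, the log2 ratio of the copies was compared by exact two-sided permutation tests, 12 in all. With 3 libraries against 3 such a test cannot give a p below 0.1. It gave 0.1 for rpl-25.1 over rpl-25.2 in hrde-2 against either other genotype, and for the rpl-11 and rpl-24 pairs in hrde-2 against hrde-1. Each of these had an adjusted p of 0.3 over the 12 exact tests. The log2 ratio of rpl-25.1 to rpl-25.2 differed by -0.82 between hrde-2 and wild-type and by -0.80 between hrde-2 and hrde-1.

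**Figure D5:**
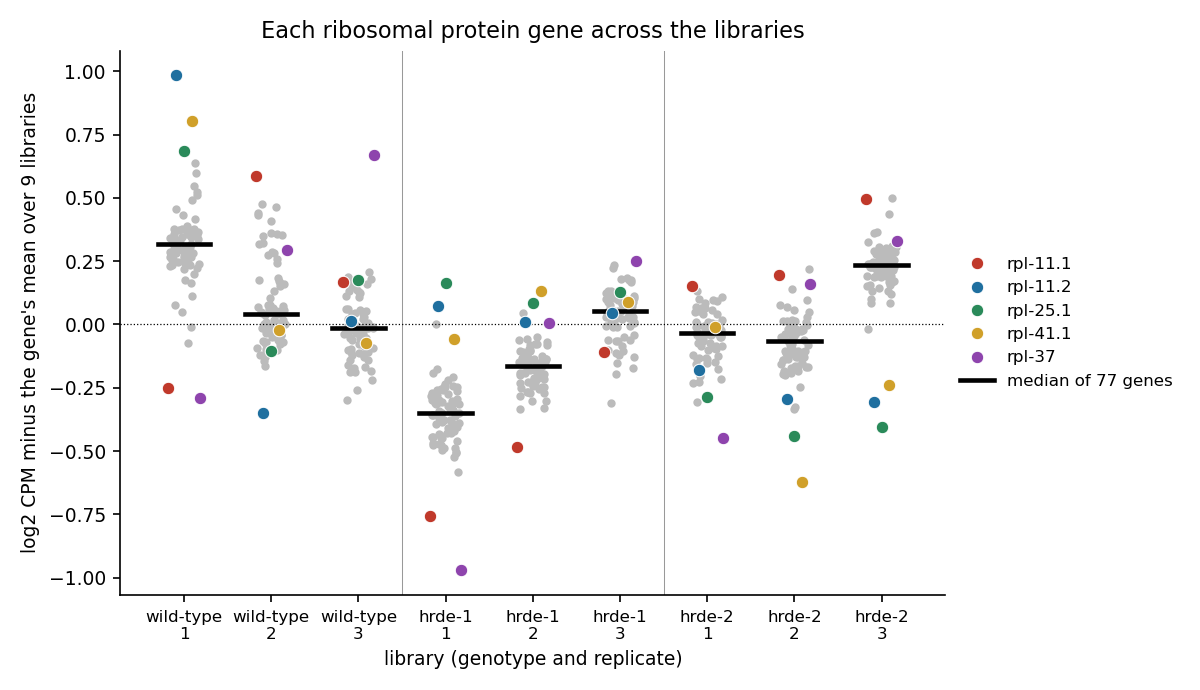
Log2 CPM of 77 ribosomal protein genes minus each gene's own mean over the 9 libraries, by library. Grey points are single genes, black bars the median, and coloured points the members rpl-11.1, rpl-11.2, rpl-25.1, rpl-41.1 and rpl-37. rpl-42 is left out. Wild-type replicate 1 is high and hrde-1 replicate 1 low for most genes, while rpl-11.2, rpl-25.1 and rpl-41.1 do not share the fall in hrde-1 replicate 1. Neither does rpl-41.2, which is among the grey points.

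Some members moved apart from the band, minor copies and others. In hrde-1 replicate 1, where 68 members had their lowest level, the minor copies rpl-11.2, rpl-25.1 and rpl-41.1 were not at theirs. Nor were the major copy rpl-41.2 (1843 CPM there, 1460 in hrde-2 replicate 2) and rpl-29 (733 and 708 CPM). The lowest level of rps-8, rps-20 and rps-27 was in hrde-1 replicate 2. That of rpl-7 was in wild-type replicate 3 (1309 CPM, against 1371 in hrde-1 replicate 1). The low genes rpl-24.2 (45.6 CPM) and rpl-37 (12.8 CPM) were at their lowest in hrde-1 replicate 1, like the band. The intestine markers were at 50172 to 69038 summed CPM in the wild-type libraries, 54825 to 92954 in those of hrde-1 and 28352 to 42902 in those of hrde-2, with none of the 8 genes at 0. The body wall muscle markers were at 2404 to 5097, 2140 to 5959 and 1284 to 3063 summed CPM, with none of 7 genes at 0. Germline markers were at 1110 to 1851 summed CPM in the wild-type libraries, 1475 to 1932 in those of hrde-1 and 1964 to 2494 in those of hrde-2. By these sums, intestine markers were lower and germline markers higher in hrde-2 than in either other genotype. Of the 10 germline markers, 3 had a log2 fold change below 0 in hrde-2 against wild-type and 2 against hrde-1. Of the 10 oocyte markers, 5 were below 0 against wild-type and 10 against hrde-1. The part of these tissues in the levels of the members that moved apart was not tested.

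Of the single-copy genes, rps-16 lies on chromosome V, 4505 bases from the hrde-2 gene. It was at 877 ± 95.4 CPM (SD, n = 3) in the wild-type libraries, 755 ± 155 in those of hrde-1 and 822 ± 143 in those of hrde-2, within the band of the other members. The largest rise of a small subunit gene from hrde-1 to hrde-2 was that of rps-24, with a log2 fold change of 0.48 ± 0.18 (SE) and an adjusted p of 0.159 in edgeR's test. The largest of hrde-2 over wild-type after rpl-42 were rpl-25.2 (0.21), rpl-7 (0.17) and rps-7 (0.14), all far from the threshold. After rpl-25.1 and rpl-41.1, the lowest of hrde-2 against hrde-1 were rpl-11.2 (-0.30) and rpl-29 (-0.10).

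Ribosomal proteins named otherwise moved in the same direction as the band. The list held rla-0, rla-1 and rla-2 of the stalk, ubl-1 and ubq-2, which are made as fusions with ubiquitin or a relative, and the scaffold protein gene rack-1. All 6 were below 0 in hrde-1 against wild-type, with a median log2 fold change of -0.28, and above 0 in hrde-2 against hrde-1, with 0.17. None was called by edgeR's test at an adjusted p under 0.05 (1.55% and 5.67% of all genes called).

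The 69 mitochondrial ribosomal protein genes, which serve a separate ribosome, had a median of -0.39 in hrde-1 and -0.16 in hrde-2 against wild-type. Of the 69, 66 and 46 were below 0. In hrde-2 against hrde-1 their median was 0.26, with 58 of 69 above 0. In edgeR's test 1 of 69, mrpl-50, was called against wild-type, lower in hrde-1 (-0.85 ± 0.18 SE, adjusted p 0.0283) and in hrde-2 (-0.63 ± 0.17, adjusted p 0.0351), beside 1.55% and 11.8% of all genes called. Between the mutants 0 were called, beside 5.67%.

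Genes that build ribosomes were mostly above 0 in hrde-2. Of 23 listed genes, 22 were tested, and 20 of these were above 0 in hrde-2 against wild-type, with a median log2 fold change of 0.42, beside -0.08 for the ribosomal protein genes and -0.10 for all genes. Called higher were nucl-1 (nucleolin, 0.70 ± 0.19 SE), lpd-6 (0.71 ± 0.19), toe-1 (0.89 ± 0.21) and rpoa-1, the largest subunit of RNA polymerase I (0.92 ± 0.24). Called lower was rpoa-12, a small subunit of the same polymerase (-0.72 ± 0.21). Their adjusted p in edgeR's quasi-likelihood test ran from 0.0154 to 0.0418, and 11.8% of all genes were called. In hrde-1 against wild-type none was called, and their median was -0.05. The germline markers had a median of 0.48 in hrde-2 against wild-type, with 3 of 10 called higher and 3 of 10 below 0. Their part in the levels of these genes was not tested, nor was the difference between these genes and the ribosomal protein genes.

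The 30 translation factors tested had medians of -0.16 in hrde-1, 0.00 in hrde-2 against wild-type and 0.27 in hrde-2 against hrde-1. Called higher were ife-5, for a cap-binding protein, in both mutants (3.64 ± 0.28 SE and 2.85 ± 0.27 on the log2 scale) and eif-3.I and ifg-1 in hrde-2 (1.36 ± 0.18 and 0.69 ± 0.16). Their adjusted p was at most 0.0165 in edgeR's test. These were 1 of 30 in hrde-1 and 3 of 30 in hrde-2, beside 1.55% and 11.8% of all genes called. Between the mutants eif-3.I was called, higher in hrde-2 (1.23 ± 0.18 SE, adjusted p 0.00300), beside 5.67% of all genes. Of 11 growth regulators, including the TOR kinase gene let-363, 0 were called in the 3 comparisons, beside 1.55%, 11.8% and 5.67% of all genes.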

How the data were processed

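PolyA RNA of whole worms was measured in 9 libraries. The authors trimmed reads with Trimmomatic 0.39, aligned them to WS258 with HISAT2 2.2.1 and deposited raw counts per gene from featureCounts (Subread 2.0.1). No use of strand was stated for the counting, and reads of several places were left out. Members and lists were chosen with earlier results of these data known. Symbols came from Ensembl's WBcel235 annotation, which held 30911 of 31106 gene IDs.

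Counts were filtered with filterByExpr, which left 12141 genes, scaled by TMM and tested in R 4.3.3 with edgeR 4.0.16 (quasi-likelihood, robust), on all 9 libraries with genotype as the only term. A second fit was scaled to the median ratio of the members. DESeq2 1.42.0, other scalings and filters, 6 libraries alone, a replicate block and leaving out each library were alternatives. Log2 CPM used a prior count of 2. The test was checked on simulated data that gave all genes the same spread and held no outlying library, unlike the data here.

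Deviations of same-numbered libraries correlated at 0.15, 0.11 and 0.25 between hrde-1 and hrde-2, over 0.1 in each pair, and at -0.25 to 0.20 between wild-type and the mutants, so only the former were treated as paired. Libraries of different numbers correlated at up to 0.39 (wild-type replicate 2 with hrde-2 replicate 3). The labels do not link replicate numbers across genotypes, so the pairing is not established.

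Named were members called, members with the 4 highest and 4 lowest fold changes per comparison, the 5 highest and 5 lowest levels, the 3 largest and 3 smallest SDs, and numbered pairs. Others, such as rps-16, were chosen after their values were seen.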

Additional observations from a re-analysis of the deposited data

Results flagged for a closer look

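One member met a rule for a closer look, rpl-42. It was singled out by the direct comparison of hrde-2 with hrde-1, with a log2 fold change of 3.12 ± 0.62 SE and an adjusted p of 0.0156 in edgeR's quasi-likelihood test. Because it passed the filter on low counts only through the hrde-2 libraries, it had to differ, and this p is no support for a difference between the mutants. It rested on 3, 1 and 5 counts in hrde-1 and 28, 34 and 31 counts in hrde-2. All 3 hrde-2 libraries were above all 6 others. The call was lost when any 1 of 5 of the 6 mutant libraries was left out.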

How the results depend on the processing

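Counts of members called were 0, 1 and 1 for hrde-1 against wild-type, hrde-2 against wild-type and hrde-2 against hrde-1. DESeq2's test gave 2, 2 and 1. Without the filter on low counts hrde-2 against hrde-1 gave 2, with the 6 libraries alone 3, and at an adjusted p under 0.01 it gave 0. Leaving out 1 library in turn gave 0 to 2, 1 to 2 and 0 to 4 calls. Counts of members that departed from the rest ran from 0 to 1, 1 to 3 and 0 to 3 when 1 library was left out. In hrde-2 against hrde-1, DESeq2's test gave 2 departures, and an adjusted p under 0.01 gave 0. The median log2 fold change ran from -0.37 to -0.10, from -0.19 to 0.10 and from 0.08 to 0.30 when 1 library was left out. The large subunit, with 47 genes against 31, exceeded the small subunit in summed CPM. By the median of log2 CPM per kb, large subunit genes lay below small subunit genes, by -0.077 (wild-type), -0.13 (hrde-1) and -0.14 (hrde-2). Of 1195 alternative fold changes of named members, 65 changed sign without being called. The cause of the other changes was not tested.

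With the replicate block on all 9 libraries the counts stayed at 0, 1 and 1. With the pairing of the 6 mutant libraries alone, an alternative added after seeing the data, hrde-2 against hrde-1 gave 7 calls. Between 3 and 3 libraries, log2 fold changes of -0.71 (rpl-38, hrde-1 against wild-type) and 0.71 (rpl-11.1, hrde-2 against hrde-1) were not called in the main fit. Changes of this size or smaller in single members could therefore be missed.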
